A study of Homo sapiens with 6 samples.

Results

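Pre-mRNA splicing is steered by RNA-binding proteins that mark exons and introns and by the small nuclear ribonucleoproteins (snRNPs) that assemble into the spliceosome. The genes described here are 50 members of this machinery, listed by symbol but with earlier results of these data known. They comprise 10 SR proteins, 20 heterogeneous nuclear ribonucleoproteins (hnRNPs) with the polypyrimidine tract binding proteins, and 9 Sm and U1 proteins. The others are 3 factors of the U2 snRNP and the 3′ splice site, 6 protein arginine methyltransferases and 2 partners of PRMT5. All 50 were found among the 57820 gene rows of each library, and all 50 passed the expression filter. RNA had been measured by poly-A RNA-seq in U266, a human multiple myeloma cell line: 3 libraries of control cells and 3 of cells transduced with a lentivirus in which the EF1A promoter drives MYC. The labels do not say whether the control cells carry a vector or whether the MYC cells are a clone or a pool. Nor do they say whether the samples of a group are separate cultures. The p-values therefore measure only the spread between these samples, which may be technical.

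SR proteins bind exonic enhancers through RNA recognition motifs and recruit U1 and U2 snRNPs through their arginine- and serine-rich tails. The hnRNPs coat nascent transcripts and often oppose SR proteins by masking splice sites, and many of them also govern mRNA export, stability and translation. The Sm proteins form a ring on the spliceosomal snRNAs, and PRMT5 together with WDR77 and CLNS1A dimethylates the arginine-rich tails of several of them before the SMN complex loads the ring. MYC is a transcription factor that binds DNA as a dimer with MAX, with a preference for the E-box CACGTG, and splicing factors are among its known targets in lymphoid tumours. Plasma cells, from which myeloma arises, make very large amounts of immunoglobulin mRNA, all of which has to be spliced.

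The libraries held 27139978 to 158667309 expected counts each, and replicates of a group always differed by more than sampling noise allows. Normalized read counts of MYC, in CPM (reads over the TMM-scaled library size), were 3.91, 4.16 and 4.51 for control cells against 105, 110.3 and 92.1 for MYC cells, a log2 difference of 4.60 ± 0.10 (SE, edgeR adjusted p = 9.71e-08), with reads of the vector and of the cell's own gene not told apart. The change was broad. Of the 17679 genes tested, 60.8% were called, 28.8% higher and 32.1% lower, at a Benjamini-Hochberg adjusted p under 0.05, and 67.1% had CPM values that did not overlap between the groups. Fold changes also followed the GC content of the transcripts, with a Spearman correlation of -0.563 over 17202 genes and -0.378 over the 50 members. The edgeR calls are therefore given as measured and again after a GC offset that removes each library's trend of CPM on GC content. Values in TPM, shares of reads and transcript lengths are given without a GC offset. With this offset 58.5% of genes were called, 29.8% higher and 28.7% lower. Plasma cell markers were present, summing to 3701 to 4220 TPM, a level scaled for transcript length and depth, in the controls and 3428 to 3486 TPM in the MYC libraries. Of the 8, 5 fell and 1, JCHAIN, rose. With the offset 6 were lower and 1 higher, and JCHAIN was not called. T and NK cell markers summed to 5.86 to 7.57 TPM in the controls and 15.6 to 17.0 TPM in the MYC libraries, and of these 6 markers the 5 that could be tested were all called higher, also with the offset. B cell markers summed to 9.46 to 9.86 TPM and 4.17 to 5.15 TPM, with 1 of 3 tested higher and 1 lower, also with the offset. Myeloid markers stayed at 2.31 TPM or less and stromal markers at 4.11 TPM or less in every library, with LUM at 0 throughout. The part of these marker shifts in the results below was not tested, and in bulk RNA fewer cells of a type and less RNA per cell cannot be told apart.

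Most of the splicing genes were higher in the MYC cells, by modest factors. Of the 50, 36 rose, 6 fell and 8 did not pass the test, and for 42 the groups did not overlap. The median log2 difference was 0.33, against -0.02 over all genes tested. All 50 are well expressed, and in a fit restricted to genes with a mean of at least 5 CPM the share of genes called higher was 34.1%. No member changed 2-fold, whereas 18% of all genes tested were called with a change of at least 2-fold. The reads of the 50 genes together made up 1.50 to 1.54% of all counts in the controls and 1.84 to 1.89% in the MYC libraries. With the GC offset 29 members were higher and 4 lower, and the median log2 difference was 0.20 against -0.005 for all genes. Without and with the offset alike, 24 members were higher and 2, SRSF4 and HNRNPA0, were lower. Over all genes, 21.1% were higher and 19.8% lower in both fits. Another 2 members, PTBP1 and U2AF2, passed the test in opposite directions in the 2 fits, as did 3.41% of all genes. The plot of every gene in every library shows most SR proteins, SRSF4 being an exception, and most hnRNPs shifted to the right, and the plot of both fits shows which shifts shrink or turn with the offset.

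**Figure D1:**
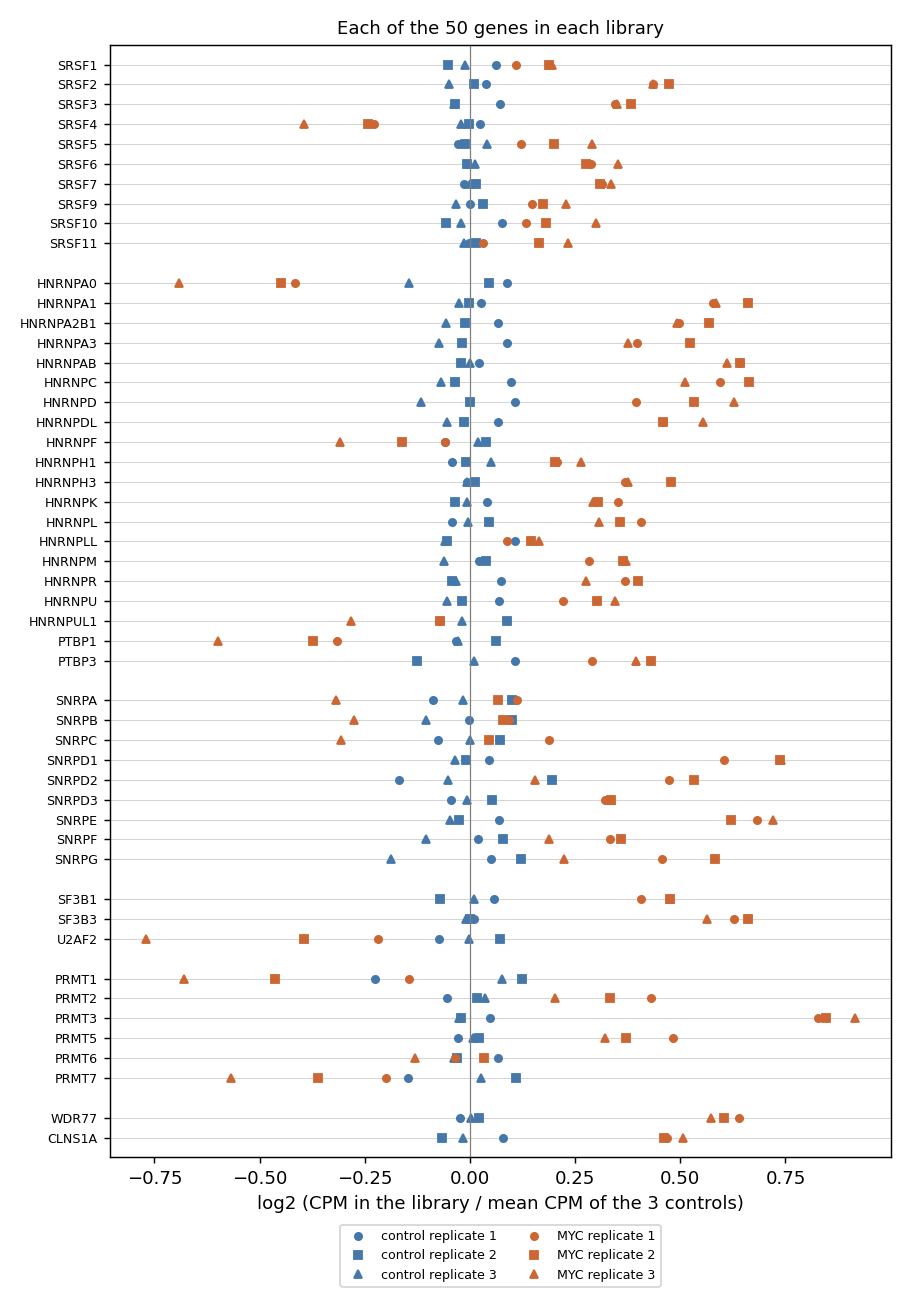
Each of the 50 genes in each of the 6 libraries, as log2 of CPM over the mean of the 3 controls, with genes in rows grouped by family and symbols marking replicates. Points of the MYC libraries lie right of the controls for most genes and left of them for SRSF4, HNRNPA0, HNRNPF, PTBP1, U2AF2 and PRMT7, of which PTBP1 and U2AF2 are higher and PRMT7 is not called after the GC offset.

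**Figure D2:**
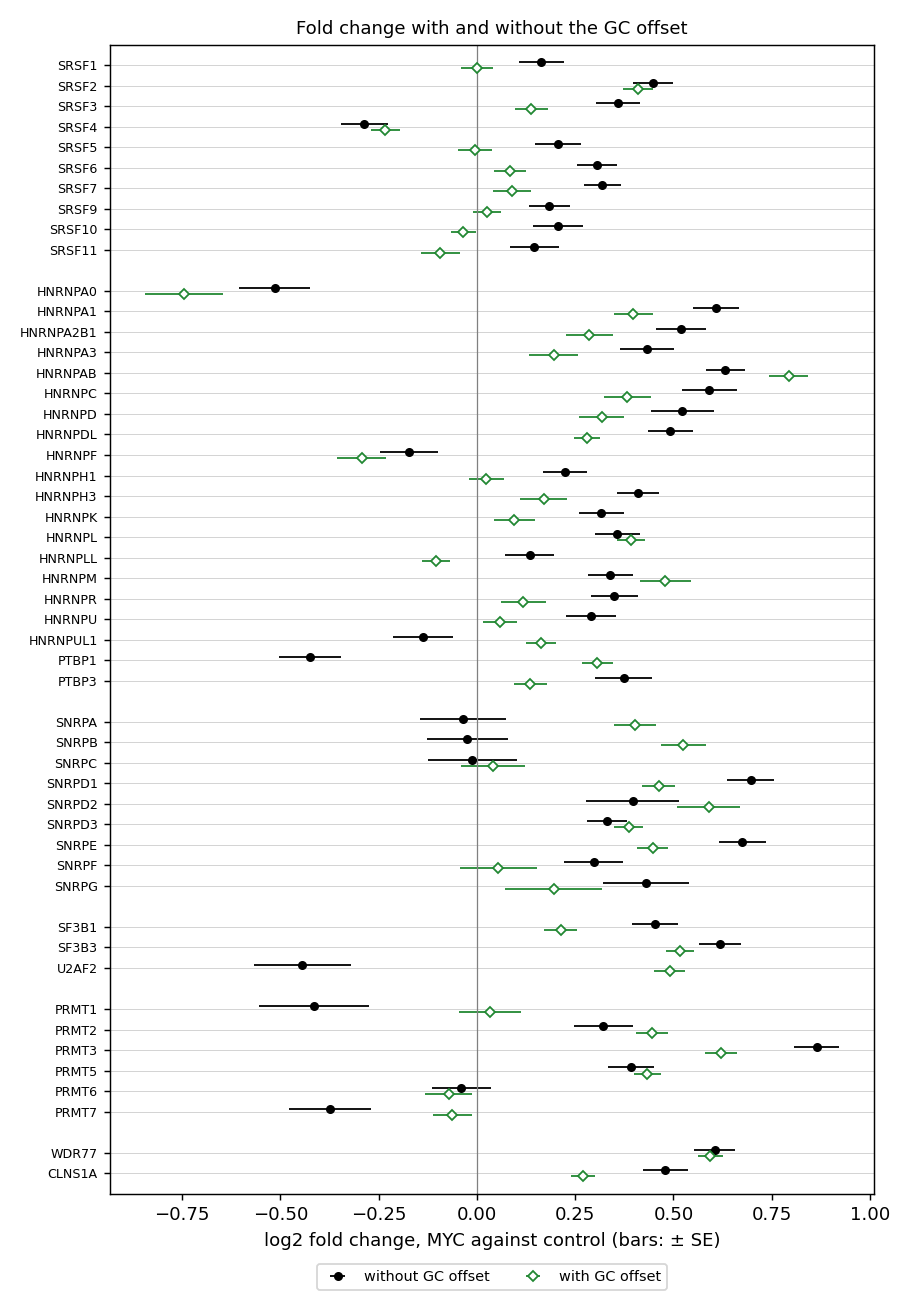
Log2 fold change of MYC against control cells for each of the 50 genes, with bars of ± SE over 3 against 3 libraries, without (filled circles) and with (open diamonds) the GC offset. Both symbols lie right of 0 for HNRNPAB, PRMT3 and WDR77, whereas PTBP1 and U2AF2 move from left to right of 0.

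In 46 of the 50 genes a RefSeq promoter window was available, from 250 bases before to 50 bases after the annotated start. The E-box CACGTG, which reads the same on both strands, occurred in a window of 9 of these 46 genes (19.6%), against 12.4% of 10745 protein-coding genes tested. Among members that were higher without and with the GC offset it occurred in 8 of 20 (40%), namely HNRNPA3, HNRNPD, HNRNPDL, HNRNPH3, HNRNPM, SF3B1, PRMT3 and WDR77, against 12% of 2624 protein-coding genes higher in both fits. None of the 9 SR protein genes and none of the 8 Sm and U1 protein genes with a window held it. The variant CACGCG, searched on both strands and unable to overlap the E-box, was found in 15 of 46 members (32.6%) against 21.4% of the protein-coding genes tested, and in 5 of the 9 SR protein genes (SRSF1, SRSF6, SRSF7, SRSF9 and SRSF10), none of which was called with the offset. Among members higher in both fits it was found in 3 of 20 (15%), against 21.9% of the protein-coding genes higher in both fits. These matches describe the sequence only and no binding was measured. The windows below belong to the 4 genes with the largest rise after the GC offset among those holding an E-box and higher in both fits. They are given 5′ to 3′ on the gene's strand, from RefSeq on GRCh38.p14, with the E-box in capitals. The window of PRMT3 (chr11:20387466-20387715, plus strand) has the E-box starting 187 bases before the start site, that of HNRNPM (chr19:8444725-8444974, plus strand) 42 bases before it and that of HNRNPD (chr4:82373992-82374241, minus strand) 27 bases before it, all outside the transcribed region. In WDR77 (chr1:111449229-111449258, minus strand) it lies inside the transcribed region, 11 bases after the start, and only 30 bases are shown.
PRMT3: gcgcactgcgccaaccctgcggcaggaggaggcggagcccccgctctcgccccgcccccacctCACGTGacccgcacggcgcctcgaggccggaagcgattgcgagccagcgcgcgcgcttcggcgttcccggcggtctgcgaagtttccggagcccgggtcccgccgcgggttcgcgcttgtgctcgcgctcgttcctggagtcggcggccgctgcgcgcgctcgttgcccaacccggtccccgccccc
HNRNPM: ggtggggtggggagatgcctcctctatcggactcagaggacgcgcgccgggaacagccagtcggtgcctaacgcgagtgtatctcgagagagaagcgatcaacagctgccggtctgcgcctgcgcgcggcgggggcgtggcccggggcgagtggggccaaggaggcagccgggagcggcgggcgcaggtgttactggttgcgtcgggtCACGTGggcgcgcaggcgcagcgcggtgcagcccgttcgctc
HNRNPD: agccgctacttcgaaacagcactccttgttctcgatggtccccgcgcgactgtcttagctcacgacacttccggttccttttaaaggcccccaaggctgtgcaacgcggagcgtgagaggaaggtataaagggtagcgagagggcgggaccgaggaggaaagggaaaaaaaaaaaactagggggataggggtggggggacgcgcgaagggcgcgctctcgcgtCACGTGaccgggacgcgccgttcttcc
WDR77: tcagaggtgcacCACGTGgggtttgctgcc

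Most SR proteins rose slightly. Of the 10 genes 8 rose, SRSF4 fell and SRSF11 did not pass the test, and for all 10 the groups did not overlap. Their median log2 difference was 0.21. With the GC offset the median was 0.01, only SRSF2 and SRSF3 were called higher, and the other 6 that had risen no longer passed the test. Summed over the family, the level per transcript length was 1771 to 1860 TPM in the controls and 1862 to 2084 TPM in the MYC libraries.

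SRSF2, an exon-enhancer binding protein that is recurrently mutated in myeloid neoplasms, measured 224, 219.8 and 211 CPM in the controls and 295, 303 and 295 CPM in the MYC libraries. The rise was 1.36-fold (edgeR adjusted p = 0.000128) and was nearly the same with the GC offset, at 1.33-fold. It overlaps MFSD11 on the opposite strand, whose reads equal 17.2% of its own and cannot be told apart where the genes overlap. The same holds for SRSF9 with GATC (26.1%), HNRNPA2B1 with CBX3 (17.7%), PRMT7 with SMPD3 (14.8%), HNRNPU with COX20 (11.3%), SNRPD2 with QPCTL (10.3%) and HNRNPAB with PHYKPL (10.1%). SRSF3, the smallest SR protein, which limits its own production through a poison exon, went from 393, 365 and 364 CPM to 475, 487 and 476 CPM. The 1.28-fold rise in reads (adjusted p = 0.000649) became 1.10-fold with the offset, and on the length-scaled TPM the means were 265 and 254, so that the read count and the level per length pointed in opposite directions. SRSF4 was lower in every MYC library, with 137, 135 and 133 CPM in the controls against 115, 114 and 103 CPM. Its 1.22-fold fall (adjusted p = 0.00319) remained with the offset, at 1.18-fold.

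SRSF6 and SRSF7, the latter an SR protein with a zinc knuckle, rose 1.24-fold and 1.25-fold as measured. After the offset they were 1.06-fold higher each and were not called. SRSF1, the prototype of the family and an oncoprotein when overexpressed, stood at 444 to 480.0 CPM in the controls and 496 to 526 CPM in the MYC libraries. Its 1.12-fold rise (adjusted p = 0.0364) was kept in 7 of 20 alternative analyses, and with the GC offset the log2 difference was -0.00020. It was lost without control replicate 2 or 3 and without MYC replicate 2 or 3 (adjusted p = 0.132, 0.130, 0.120 and 0.0568). SRSF5, SRSF9 and SRSF10 rose 1.15-fold, 1.14-fold and 1.15-fold, and their calls were kept in 10, 13 and 9 of the 20. That of SRSF5 was lost without control replicate 1 or 2 or MYC replicate 2 (adjusted p = 0.0764, 0.0703 and 0.0544), that of SRSF9 without control replicate 3 (0.0807), and that of SRSF10 without control replicate 2 or 3 or MYC replicate 2 (0.0970, 0.0886 and 0.0553). SRSF11 had a log2 difference of 0.15 as measured and -0.09 with the offset, neither of which passed the test, although it was called higher without MYC replicate 1 (adjusted p = 0.0232).

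Most hnRNPs rose, among them the most abundant transcripts of the set. Of 20 genes 15 rose, 2 fell (HNRNPA0 and PTBP1) and 3 did not pass the test. The family's summed level was 7849 to 8556 TPM in the controls and 10235 to 11189 TPM in the MYC libraries. Its median log2 difference was 0.35 as measured and 0.18 with the GC offset, with which 13 members were higher, PTBP1 among them, and 3 were lower.

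HNRNPA2B1 and HNRNPA1, which package nascent transcripts and silence exons, led the ranking by TPM in both groups. HNRNPA1 counted 1261, 1237 and 1217 CPM in the controls and 1849, 1959 and 1857 CPM in the MYC libraries. It rose 1.52-fold (adjusted p = 5.36e-05), or 1.32-fold with the GC offset. Its 74 annotated processed copies held reads equal to 0.733% of its own, and adding the copies' reads to their parent genes changed no call among the 50 genes. HNRNPA2B1 measured 2057, 1948 and 1890.0 CPM against 2775, 2914 and 2762 CPM, a rise of 1.43-fold (adjusted p = 0.00018) that was 1.22-fold with the offset. HNRNPC, which binds uridine tracts in introns, went from 755, 688 and 672 CPM to 1065, 1116 and 1006 CPM, 1.51-fold and 1.30-fold higher in the 2 fits. In each of these genes the lowest MYC library lay above the highest control.

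HNRNPAB showed the largest rise of the family. It measured 220.2, 213 and 217 CPM in the controls and 338, 338 and 331 CPM in the MYC libraries, 1.55-fold higher (adjusted p = 1.99e-05) and 1.73-fold higher with the GC offset. HNRNPD, also known as AUF1, a regulator of the decay of mRNAs with AU-rich elements, rose 1.44-fold and its relative HNRNPDL 1.41-fold, and with the offset 1.25-fold and 1.21-fold. HNRNPM rose 1.27-fold and HNRNPL, which binds CA repeats, 1.28-fold. Both were larger after the offset, at 1.39-fold and 1.31-fold. HNRNPA3, HNRNPH3 and PTBP3 rose 1.35-fold, 1.33-fold and 1.30-fold as measured and 1.15-fold, 1.13-fold and 1.10-fold with the offset. With the offset, the calls of HNRNPA3 and HNRNPH3 were lost without control replicate 1 or 3 and without MYC replicate 1 or 2 (adjusted p up to 0.102 and 0.144), that of PTBP3 without any 1 control or MYC replicate 2 (up to 0.0914), and that of SRSF3 without control replicate 3 or MYC replicate 1 or 2 (up to 0.0878). HNRNPH1, HNRNPK, HNRNPR and HNRNPU rose between 1.17-fold and 1.27-fold as measured and were not called with the offset.

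HNRNPA0 went the other way. This small relative of HNRNPA1 counted 238, 231 and 202 CPM in the controls and 168, 164 and 139 CPM in the MYC libraries, a fall of 1.43-fold (adjusted p = 0.00124) that was 1.68-fold with the GC offset. Its transcripts have a GC content of 41.1%. The median log2 difference of the 2565 genes tested between 38% and 42% GC was 0.24 without the offset. The cause of the fall was not tested. HNRNPF, a binder of G runs, ended 1.13-fold lower without passing the test (adjusted p = 0.0726) and was called 1.23-fold lower with the offset (adjusted p = 0.00346). Without the offset it was also called lower once either control replicate 1 or MYC replicate 1 was removed (edgeR adjusted p = 0.0401 and 0.0312). HNRNPF was called lower in 9 of the 20 alternative analyses, these and the GC offset included. Its mean TPM was 469 in the controls and 380 in the MYC libraries. HNRNPLL, known for its role in CD45 splicing and in plasma cells, was not called as measured (log2 difference 0.13) and was slightly lower with the offset (-0.10, adjusted p = 0.0318). The latter call was lost without control replicate 1 or 2 and without MYC replicate 1 or 3 (adjusted p up to 0.111), and as measured HNRNPLL was called higher without control replicate 1 (adjusted p = 0.0349). HNRNPUL1 was not called as measured (-0.14) and was higher with the offset (0.16, adjusted p = 0.00616).

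PTBP1, a repressor of exons flanked by pyrimidine tracts, gave values that depended on the scale. It counted 419, 447 and 419.8 CPM in control and 344, 331 and 283 CPM in MYC cells, 1.34-fold lower (adjusted p = 0.0018). With the GC offset it was 1.24-fold higher (adjusted p = 0.000164), and its TPM went from 247, 299 and 286 among controls to 318, 324 and 331 among MYC libraries. Its transcripts have 59.7% GC.

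**Figure D3:**
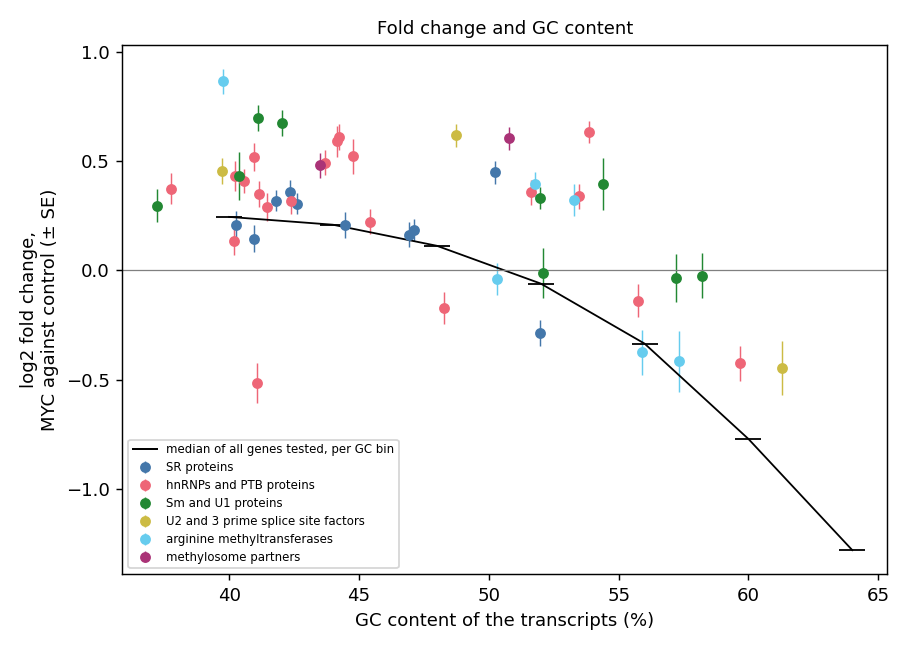
Log2 fold change, MYC against control, of each of the 50 genes (points, with bars of ± SE, n = 3 against 3) against the GC content of its transcripts in percent, without the GC offset, and the median of all genes tested in bins of GC content (line). Most points lie above the line, PTBP1 and U2AF2 among them although below 0, while HNRNPA0 at 41.1% GC lies far below it.

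By construction the GC offset shifts genes according to their GC content, so the counts with the offset describe that shift and no separate result. Of the 8 genes above 54% GC, 1 rose, 4 fell and 3 did not pass the test, and with the GC offset 6 were higher, none was lower and 2 did not pass. Of the 42 others 35 rose and 2 fell, and with the offset 23 were higher and 4 lower. Replicates of the GC-rich genes also scattered more, with a median coefficient of variation of 13.7% in the MYC libraries and 6.86% in the controls, against 3.63% and 3.58% for the other 42. In all 8, MYC replicate 3 was the lowest MYC library and control replicate 2 the highest control. Neither this order nor the scatter was counted over all genes above 54% GC, so neither is shown to be particular to these 8. The cause of the GC trend was not tested.

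Among the Sm and U1 proteins SNRPD1, SNRPD2, SNRPD3 and SNRPE of the Sm ring were higher without and with the GC offset. Of 9 genes 6 rose, none fell and 3 (SNRPA, SNRPB and SNRPC) did not pass the test. With the offset 6 were again higher and none lower, but SNRPA and SNRPB had replaced SNRPF and SNRPG. The summed level was 1901 to 2013 TPM in the controls and 2118 to 2405 TPM in the MYC libraries, of which SNRPD2 supplied the largest share.

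SNRPD1 measured 62.8, 60.4 and 59.3 CPM in the controls and 92.4, 101 and 102 CPM in the MYC libraries. It rose 1.62-fold (adjusted p = 3.02e-05), or 1.38-fold with the offset. SNRPE went from 48.4, 45.3 and 44.7 CPM to 74.1, 71.0 and 76.0 CPM, 1.60-fold and 1.36-fold higher. In SNRPD1 and SNRPE the groups were far apart relative to their spread. SNRPD3 rose 1.26-fold, and 1.31-fold with the offset, but it shares its locus with GUCD1 on the opposite strand and GGT1 on the same strand, whose reads equal 105% and 38.1% of its own. SNRPD2 rose 1.32-fold (adjusted p = 0.0187) although its groups overlapped, with 187, 240.5 and 203 CPM against 291, 304 and 234 CPM, and it was 1.50-fold higher with the offset. The call without the offset was lost without control replicate 1 or 3 or MYC replicate 2 (adjusted p = 0.0799, 0.0679 and 0.0754). SNRPF and SNRPG rose 1.23-fold and 1.35-fold as measured and were not called with the offset. SNRPG has 20 annotated processed copies, with reads equal to 2.99% of its own.

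SNRPB, which encodes the SmB and SmB′ proteins, measured 237, 255 and 221 CPM in the controls and 254, 251 and 197 CPM in the MYC libraries. The groups overlapped and the log2 difference was -0.02 (adjusted p = 0.853), whereas with the GC offset it was 0.53 (adjusted p = 5.99e-05). SNRPA, the A protein of U1 snRNP, which binds a stem-loop of U1 snRNA, likewise went from -0.04 to 0.40. Its transcripts have 57.2% GC and those of SNRPB 58.2%. It overlaps ACTMAP on the opposite strand, whose reads equal 29.8% of its own. SNRPC, the C protein of U1 snRNP, which helps U1 snRNP to recognise the 5′ splice site, was not called in either fit (-0.01 and 0.04).

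Of the U2 and 3′ splice site factors SF3B1 and SF3B3 rose in both fits, while U2AF2 fell as measured and was higher with the GC offset. SF3B1, the branch-site subunit of U2 snRNP that is mutated in myelodysplastic syndromes and chronic lymphocytic leukaemia, measured 449, 411 and 434 CPM in the controls and 572, 599 and 599.5 CPM in the MYC libraries. It rose 1.37-fold (adjusted p = 0.000235), or 1.16-fold with the offset. SF3B3, which sits beside SF3B1 in the same complex, went from 306, 304 and 302 CPM to 469.7, 481 and 449.8 CPM, 1.53-fold higher (adjusted p = 3.06e-05) and 1.43-fold higher with the offset. For both genes all MYC libraries lay above all controls. U2AF2, the large subunit of the factor that binds the polypyrimidine tract, measured 225, 248 and 236 CPM against 203, 179.7 and 138 CPM. That was 1.36-fold lower (adjusted p = 0.0132) as measured and 1.41-fold higher with the GC offset (adjusted p = 1.08e-05). At 61.3% it has the most GC-rich transcripts of the 50 genes, and its MYC libraries ranged more widely than its controls. On the TPM scale it stayed lower, with means of 201 in the controls and 122 in the MYC libraries.

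The arginine methyltransferases went in different directions. Of 6 genes PRMT2, PRMT3 and PRMT5 rose, PRMT1 and PRMT7 fell and PRMT6 did not pass the test, and with the GC offset the same 3 were higher and none was lower. Summed levels overlapped between the groups, at 534 to 607 TPM in the controls and 510.5 to 581 TPM in the MYC libraries.

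PRMT3, a cytosolic enzyme whose known substrate is the ribosomal protein RPS2, had the largest difference of the 50 genes as measured, while with the GC offset HNRNPAB (log2 0.79) and HNRNPA0 (log2 -0.74) differed more than PRMT3 (log2 0.62). It measured 33.2, 31.6 and 31.5 CPM in the controls and 57.0, 57.7 and 60.6 CPM in the MYC libraries. The rise was 1.82-fold (log2 0.86 ± 0.06, SE, adjusted p = 9.81e-06), or 1.54-fold with the offset. PRMT5, the main enzyme of symmetric arginine dimethylation, whose substrates include Sm proteins and histones, measured 184, 190.3 and 188 CPM against 262, 242 and 234 CPM. It rose 1.31-fold (adjusted p = 0.000505), and 1.35-fold with the offset. PRMT2 was far less abundant and rose from 21.1, 22.1 and 22.4 CPM to 29.5, 27.6 and 25.2 CPM, 1.25-fold and 1.36-fold in the 2 fits. In PRMT2, PRMT3 and PRMT5 the groups did not overlap.

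PRMT1, which carries out most asymmetric arginine dimethylation and methylates many hnRNPs, was the most abundant methyltransferase by TPM in both groups. It counted 241, 307 and 296 CPM in the controls and 254, 204 and 176 CPM in the MYC libraries, so that MYC replicate 1 lay above control replicate 1. The 1.33-fold fall (adjusted p = 0.0293) was not called with the GC offset, where the log2 difference was 0.03 (adjusted p = 0.743). It was also lost without control replicate 2 or 3 or MYC replicate 2 (adjusted p = 0.0819, 0.0848 and 0.0900). PRMT7, the enzyme of arginine monomethylation, was 1.30-fold lower as measured (adjusted p = 0.0128), and its log2 difference of -0.06 with the offset was not called. On the TPM scale the means were 57.6 and 55.9. PRMT6, a nuclear enzyme that methylates histone H3, had the lowest level of the 50 genes, with means of 8.22 TPM in the controls and 7.76 TPM in the MYC libraries, and was not called in either fit.

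Both partners of PRMT5 rose with it. WDR77 (MEP50), the WD-repeat protein without which PRMT5 has little activity, measured 45.1, 46.5 and 45.9 CPM in the controls and 71.4, 69.6 and 68.2 CPM in the MYC libraries. The rise was 1.52-fold (adjusted p = 3.23e-05), or 1.51-fold with the offset. WDR77 overlaps ATP5PB on the opposite strand, whose reads equal 279.7% of its own. CLNS1A (pICln), the chaperone that presents Sm proteins to PRMT5, went from 124, 112 and 116 CPM to 162, 162 and 167 CPM, 1.39-fold higher (adjusted p = 0.000137) and 1.21-fold higher with the offset. The summed level of the 2 partners was 193 to 222 TPM in the controls and 273 to 298 TPM in the MYC libraries.

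**Figure D4:**
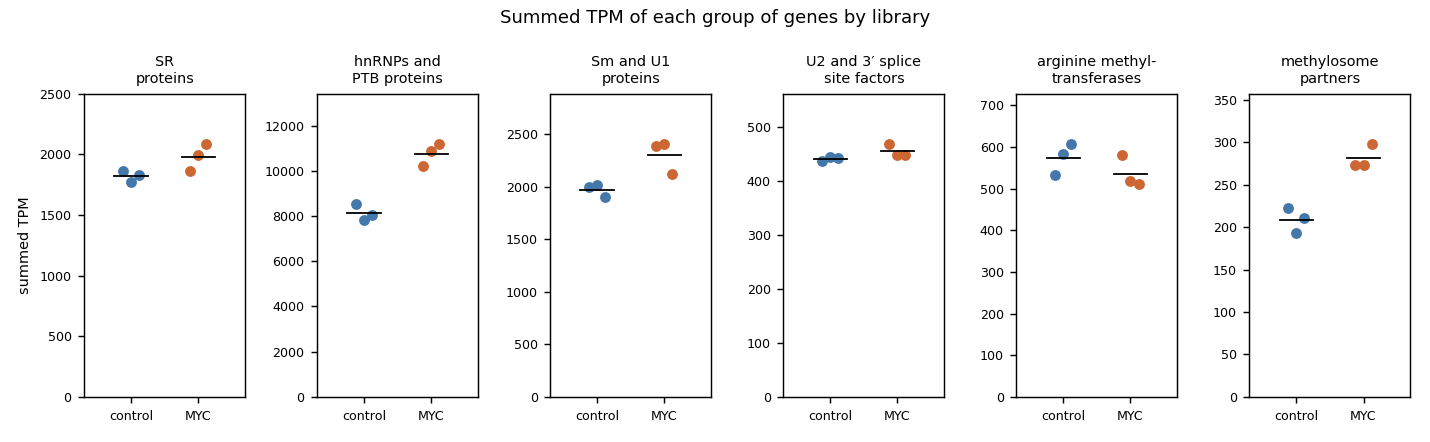
Summed TPM of each group of genes in each library (points), with lines at the means of the 3 control and 3 MYC libraries and axes that start at 0. The groups separate for hnRNPs (7849 to 8556 against 10235 to 11189 TPM) and for the PRMT5 partners. They also separate, by smaller margins, for 3 other panels. The highest control and lowest MYC library were 1859.8 and 1861.5 TPM for SR proteins and 2013 and 2118 TPM for Sm and U1 proteins. For the U2 and 3′ splice site factors they were 443.5 and 447.9 TPM. The groups overlap for the arginine methyltransferases.

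Over the 20 alternative analyses that varied the normalization, filter, test, unit, GC and length offsets, replicate block, pseudogene reads and libraries, 19 of the 36 rises and 2 of the 6 falls kept their call in every one. Over the 10563 genes tested in all of them, 17.6% were higher and 17.3% lower in every one. The 19 were SRSF2, HNRNPA1, HNRNPA2B1, HNRNPAB, HNRNPC, HNRNPD, HNRNPDL, HNRNPL, HNRNPM, SNRPD1, SNRPD3, SNRPE, SF3B1, SF3B3, PRMT2, PRMT3, PRMT5, WDR77 and CLNS1A, and the 2 falls were SRSF4 and HNRNPA0. The largest adjusted p that any of them reached was 0.0248, in PRMT2.

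The tables also hold, for each gene, the mean length of its transcripts weighted by their estimated abundance, a readout of the transcript mix that differs from the level. Of 49 members tested on this length with limma, 3 were longer in the MYC cells and 2 shorter, against 3.06% and 4.79% of 14102 genes. SRSF3 was longer, with 2116, 1973 and 2037 bases in the controls and 2638, 2527 and 2647 bases in the MYC libraries (adjusted p = 0.0139), and this is the gene whose reads rose while its TPM did not. PTBP1 was shorter, with 2476, 2079 and 2139 bases against 1535, 1489 and 1359 bases (limma adjusted p = 0.0262). Its TPM was higher although its CPM was lower. Because TPM is scaled for transcript length, the differences between CPM and TPM in SRSF3 and PTBP1 follow from the lengths by construction. They are no separate result. U2AF2 was longer (mean 1738 against 2016 bases, adjusted p = 0.0467), as was SNRPC (794 against 839.6 bases, adjusted p = 0.0262), and HNRNPUL1 was shorter (3083 against 2512 bases, adjusted p = 0.0294). In all 5 genes the 3 MYC lengths lay outside the range of the 3 controls, as the plot of lengths shows. The length calls carry no GC offset. Transcripts of PTBP1, U2AF2 and HNRNPUL1 have 59.7%, 61.3% and 55.7% GC, and those of SRSF3 and SNRPC 42.4% and 52.1%. The part of the GC trend in the length calls was not tested. These calls also rest on few libraries. The call of PTBP1 was lost when any 1 library was left out (adjusted p = 0.0522 to 0.0912). Without control replicate 1 only SRSF3 and SNRPC were called, both longer. Without MYC replicate 1 SRSF3 and U2AF2 were longer, and HNRNPUL1 (adjusted p = 0.0196) and PRMT7 (adjusted p = 0.049) shorter. Without MYC replicate 2 or MYC replicate 3 only SRSF3 was called, and without control replicate 2 or control replicate 3 limma called none, with 4 longer and 5 shorter, and 5 longer and 4 shorter, at an unadjusted p under 0.05.

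**Figure D5:**
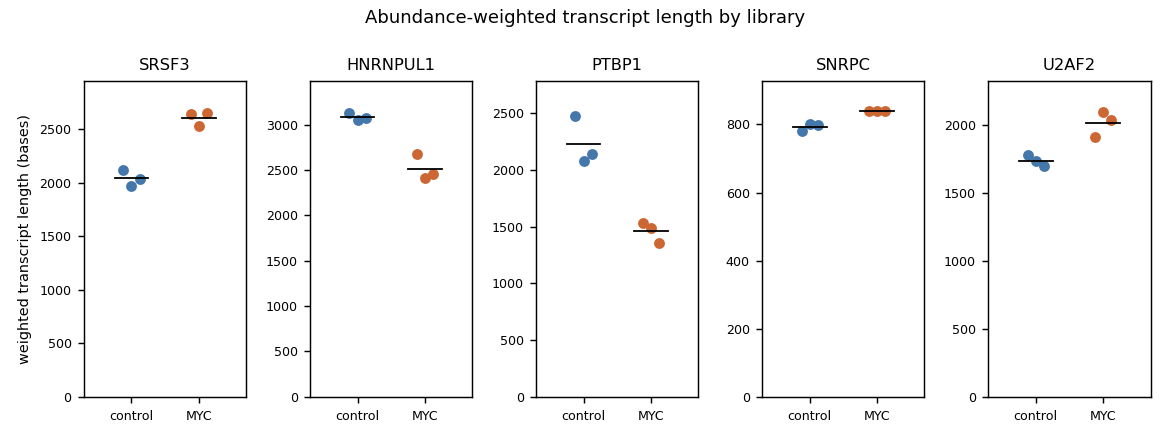
Abundance-weighted mean transcript length in bases of the 5 genes called for length, in each control and MYC library (points), with lines at group means and axes that start at 0. PTBP1 falls from a mean of 2231 to 1461 bases and SRSF3 rises from 2042 to 2604 bases.

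The neighbouring machinery was described with 10 further lists of 137 genes, of which 130 could be tested: 61 rose, 33 fell and 36 did not pass the test, and with the GC offset 55 were higher and 30 lower. Over all genes tested 28.8% were higher and 32.1% lower, or 29.8% and 28.7% with the offset. Among genes with a mean of at least 5 CPM the shares were 34.1% and 35%. The counts of single lists here and below are descriptive, and several lie near these shares. The SMN complex, which loads the Sm ring onto snRNAs, was mostly higher: 8 of its 10 genes rose and 1, GEMIN7, fell. With the offset 6 were higher, GEMIN7 was not called (log2 0.06) and GEMIN8, not called as measured, was lower (log2 -0.33, edgeR adjusted p = 0.0201). GEMIN6 rose 2.03-fold and GEMIN5, the subunit that recognises snRNAs, 1.72-fold, or 1.82-fold and 1.55-fold with the offset. SMN1 and SMN2 are near-identical copies whose reads the counting divides by estimate, so their separate values are uncertain. Of 8 other arginine methylation genes tested 2 rose and 3 fell, and with the offset 4 were higher and 2 lower, with CARM1, an asymmetric arginine methyltransferase, lower as measured (log2 -0.43) and higher with the offset (log2 0.38). RIOK1, which competes with CLNS1A for PRMT5, rose 1.50-fold (1.29-fold with the offset). BTG1, a known partner of PRMT1, fell 1.64-fold (1.94-fold with the offset).

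Of 9 genes for SR protein kinases and their importer, 4 rose and 2 fell, and with the offset 1 was higher and 2 lower. SRPK1, which phosphorylates SR proteins in the cytoplasm, rose from 81.0 ± 4.37 to 156 ± 4.30 CPM (SD, n = 3 each), 1.92-fold, and 1.66-fold with the offset. CLK3 and DYRK1A, nuclear kinases of SR proteins, fell 1.43-fold and 1.20-fold, and with the offset 1.25-fold and 1.40-fold. Among other hnRNPs and related RNA binders 5 of 15 rose and 3 fell, and with the offset 8 were higher and 3 lower. SYNCRIP (hnRNP Q) and PTBP2, the neuronal relative of PTBP1, rose 1.56-fold and 1.74-fold (1.32-fold and 1.47-fold with the offset), and RALY, a relative of HNRNPC, fell 2.46-fold, or 1.85-fold with the offset. HNRNPC and RALY thus moved in opposite directions in both fits.

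Of 14 other U2 and 3′ splice site factors 4 rose and 4 fell, and with the offset 5 were higher and 4 lower. SF3A3 and SF3B6 rose 1.49-fold and 1.40-fold (1.33-fold and 1.20-fold with the offset), while SF3A2 fell from 125 ± 6.37 to 35.0 ± 7.62 CPM (SD, n = 3 each), 3.59-fold as measured and 1.50-fold with the offset, and SF3B4 fell 1.45-fold (1.31-fold with the offset). SNRNP70, the third U1-specific protein beside SNRPA and SNRPC, fell 1.32-fold as measured and was 1.62-fold higher with the offset. Among 17 other splicing regulators tested, 7 rose and 5 fell, and with the offset 5 were higher and 9 lower. ESRP1, a regulator of epithelial splicing, fell from 225 ± 7.81 to 74.5 ± 1.83 CPM (SD, n = 3 each), 3.02-fold, and 3.52-fold with the offset. MBNL1 rose 1.51-fold and the less abundant RBFOX2 2.16-fold, and with the offset 1.28-fold and 1.94-fold.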

How the data were processed

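Poly-A RNA-seq was analysed in 3 control and 3 MYC libraries of U266 cells, grouped by their titles. Per the labels' protocols the library kit does not mark strand. Cutadapt, TopHat2 and the build GRCh37 are named in the submitters' processing notes. Their versions and the annotation were not stated. The authors deposited, for each library, a table of RSEM output that lists per gene an expected count, a TPM value scaled for length and depth, and a weighted and an effective transcript length, here a score in bases.

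After rounding, the expected counts went into edgeR 4.0.16 (R 4.3.3), with filterByExpr, TMM and group as the only term. Genes were called by the quasi-likelihood F test at a Benjamini-Hochberg adjusted p under 0.05 over 17679 genes. Standard errors were derived from the F statistic. Transcript lengths were tested with limma 3.58.1 on a log2 scale with a variance trend. For the GC offset, log2 CPM was regressed on transcript GC content by loess (span 0.4) within each library, and TMM factors were computed anew. GC content came from GENCODE 29 transcripts, which matched 92.5% of the listed transcript identifiers. The fits were also run on simulated data with few changed genes and a GC bias equal in all MYC libraries. In the measured data most genes were called, so the simulation does not show how TMM or the GC offset behave here. Symbols were matched for 51996 of 57820 rows; SRSF8 and TAF15 of the wider lists had none.

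The members, gene lists, rule for names and tests were chosen with earlier results of these data known. All 50 members could be named, and from each wider list up to 2 called genes per direction by smallest adjusted p. SMN1 and SMN2 were named outside this rule for the reason given beside them. GEMIN8 and CARM1, whose calls changed with the GC offset, were also named outside it. The alternatives were limma-voom, DESeq2 1.42.0, library totals, RLE factors, no filter, a minimum mean CPM of 5, log2(TPM + 1) or log2(TPM + 0.1) in limma, offsets for GC content or effective length, a replicate block with and without the GC offset, pseudogene reads added and each library left out. Added after seeing the data were the GC offset with the first TMM factors and with each library left out. Summed counts of 27139978 to 158667309 per library limit the precision of low genes in the shallowest. Promoter windows came from a RefSeq table of GRCh38.p14 and were used only for sequence.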

Additional observations from a re-analysis of the deposited data

How the results depend on the processing

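Over the alternatives the count of higher members stayed within 1.5 times of 36, from 25 (GC offset with the first TMM factors) to 38 (RLE factors), and that of lower members lay between 3 and 7. Without control replicate 2, MYC replicate 1 or MYC replicate 3 the GC offset left 3 members lower. Of the 24 members higher without and with the GC offset, 20 kept the call with the offset when each library was left out. SRSF3, HNRNPA3, HNRNPH3 and PTBP3 did not. Leaving out each library gave 32 to 37 higher and 5 to 7 lower members, and 25 to 33 and 3 to 4 with the offset. The cause of the changes below was not tested, unless the alternative's own construction shows it.

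With the GC offset the log2 difference changed sign in SRSF1 (-0.00020), SRSF5 (-0.0050), SRSF10 (-0.034), SRSF11 (-0.093), HNRNPLL (-0.10), HNRNPUL1 (0.16), PTBP1 (0.31), SNRPA (0.40), SNRPB (0.53), SNRPC (0.042), U2AF2 (0.49) and PRMT1 (0.033). With that offset and the first TMM factors it did so in SRSF1 (-0.051), SRSF5 (-0.056), SRSF9 (-0.025), SRSF10 (-0.085), SRSF11 (-0.14), HNRNPH1 (-0.026), HNRNPLL (-0.15), HNRNPUL1 (0.11), PTBP1 (0.26), SNRPA (0.35), SNRPB (0.47) and U2AF2 (0.44), and with the effective length offset in SRSF3 (-0.031), HNRNPUL1 (0.18), PTBP1 (0.25) and SNRPA (0.16). On log2(TPM + 1) these were SRSF3 (-0.063), HNRNPUL1 (0.14), PTBP1 (0.23) and SNRPA (0.12), and on log2(TPM + 0.1) SRSF3 (-0.064), HNRNPUL1 (0.14), PTBP1 (0.23) and SNRPA (0.13). SNRPC changed sign with RLE factors (0.0073) and DESeq2 (0.0014). The ranges when each library was left out included 0 for SNRPA (-0.11 to 0.091), SNRPB (-0.086 to 0.089), SNRPC (-0.12 to 0.12) and PRMT6 (-0.083 to 0.0094), with the sign changed without MYC replicate 3 in all 4 and without control replicate 2 in SNRPA, SNRPB and SNRPC.

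Whether replicate numbers pair the libraries could not be decided from 3 libraries per group. Deviations of same-numbered libraries correlated at -0.047, 0.078 and 0.110. Control replicate 3 correlated best with MYC replicate 3 (0.110), but so did control replicate 1 (0.066), and control replicate 2 correlated best with MYC replicate 1 (0.103). With the replicate block 35 members were higher and 6 lower. With the replicate block and GC offset 30 were higher and 4 lower, and the sign changed in SRSF5 (-0.0058), SRSF10 (-0.034), SRSF11 (-0.093), HNRNPLL (-0.10), HNRNPUL1 (0.16), PTBP1 (0.31), SNRPA (0.40), SNRPB (0.53), SNRPC (0.033), U2AF2 (0.49) and PRMT1 (0.032). For transcript length the replicate block called 0 longer and 0 shorter members of 49 with limma (7 and 6 at an unadjusted p under 0.05), and 0 of all genes tested. Effective length called 1 longer and 2 shorter, genes with a mean CPM of at least 5 gave 4 and 4, and leaving out each library gave 0 to 2 longer and 0 to 2 shorter.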
